A study of Mus musculus with 2 samples.

Results

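Circadian clock genes, 10 of the 15113 genes listed in either of 2 libraries of mouse lung epithelial cells, were chosen by name: Per1, Per2, Per3, Cry1, Cry2, Arntl (also called Bmal1), Clock, Nr1d1, Nr1d2 and Dbp. All 10 were listed in both libraries under these symbols. The study compared lung epithelium of tumour-bearing mice with that of normal mice, the setting its title calls the pre-metastatic niche. The tumour-bearing library came from C57BL/6 mice aged 6 to 8 weeks that received 1000000 luciferase-labelled LLC cells, a mouse line derived from Lewis lung carcinoma, under the skin of the back, a model of spontaneous lung metastasis. The control library came from wild-type C57BL/6 mice of the same age range without a tumour. In both, cells negative for CD45, the surface protein of leukocytes, and positive for Sftpc, the surfactant protein of alveolar type 2 (AT2) cells, were sorted from dissociated lung. Below, the libraries are called control and tumour-host epithelium. The sources used here give neither the number of mice nor the hour at which lungs were taken. With 1 library in each group there is no replicate check, and p-values are left out.

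The clock is a feedback loop of transcription that runs with a period of about a day in nearly every cell of the body. The proteins of Arntl and Clock pair and activate genes through E-boxes, among them the Per, Cry, Nr1d and Dbp genes. The PER and CRY proteins then inhibit that pair. The receptors encoded by Nr1d1 and Nr1d2 (REV-ERB alpha and beta) repress Arntl through ROR elements, and DBP, a clock output factor, activates genes through D-boxes. In peripheral tissues of mice the transcripts peak in sequence, Nr1d1 and Dbp in the day, Per1 and Per2 towards dusk, Cry1 later in the night and Arntl towards dawn. In the mouse lung, the clock of airway epithelial cells is known to set the daily rhythm of neutrophil recruitment. Because transcript levels of these genes change with the hour, and the hour is not given here, hour and group cannot be told apart in any value that follows.

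Promoter windows ran from 250 bases before to 50 bases after the annotated start. They were available from RefSeq for 9 of the 10 genes, in 13 windows, on GRCm38, the assembly that mm10 denotes. Per2 had no window and was not searched. The 13 windows were searched on both strands for the E-box CACGTG, the E-prime box CACGTT and the D-box TTATGTAA or TTACGTAA. The ROR element TAGGTCA or TGGGTCA and the cAMP response element TGACGTCA were searched in the same way. No motif of one kind overlapped a match of another kind in these windows. The 5 windows below are shown because they hold matches to these classes of clock element, and the capitals mark the matches.
Cry1: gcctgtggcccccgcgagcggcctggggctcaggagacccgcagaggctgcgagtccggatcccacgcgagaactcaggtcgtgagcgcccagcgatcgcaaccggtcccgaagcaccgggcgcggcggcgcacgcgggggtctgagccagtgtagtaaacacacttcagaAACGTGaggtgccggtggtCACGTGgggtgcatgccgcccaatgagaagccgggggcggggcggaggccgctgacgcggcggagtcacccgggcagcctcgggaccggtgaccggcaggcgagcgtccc
Per1: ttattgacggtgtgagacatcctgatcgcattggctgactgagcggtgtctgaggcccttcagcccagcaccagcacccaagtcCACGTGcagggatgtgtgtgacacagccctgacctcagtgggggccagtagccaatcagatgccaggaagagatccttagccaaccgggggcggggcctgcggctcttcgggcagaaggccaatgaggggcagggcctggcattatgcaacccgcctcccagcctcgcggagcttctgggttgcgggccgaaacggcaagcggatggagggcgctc
Nr1d1: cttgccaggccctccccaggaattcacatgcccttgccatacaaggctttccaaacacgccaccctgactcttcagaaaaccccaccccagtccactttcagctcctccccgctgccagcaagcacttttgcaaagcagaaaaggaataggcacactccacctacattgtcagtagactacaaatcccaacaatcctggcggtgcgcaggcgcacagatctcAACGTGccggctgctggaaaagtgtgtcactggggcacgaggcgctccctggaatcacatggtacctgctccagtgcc
Per3: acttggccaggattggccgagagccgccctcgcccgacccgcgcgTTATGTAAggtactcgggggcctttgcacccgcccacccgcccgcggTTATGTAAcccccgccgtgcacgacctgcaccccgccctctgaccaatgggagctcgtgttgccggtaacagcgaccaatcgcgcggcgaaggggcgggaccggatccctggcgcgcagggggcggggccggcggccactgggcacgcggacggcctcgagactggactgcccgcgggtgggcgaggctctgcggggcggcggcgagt
Arntl: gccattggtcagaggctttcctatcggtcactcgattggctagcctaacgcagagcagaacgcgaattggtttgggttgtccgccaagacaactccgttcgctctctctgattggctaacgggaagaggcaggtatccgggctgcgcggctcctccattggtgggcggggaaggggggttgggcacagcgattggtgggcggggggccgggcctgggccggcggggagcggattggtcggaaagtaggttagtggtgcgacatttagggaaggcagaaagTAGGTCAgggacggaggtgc
The windows lie at chr10:85185005-85185304 (minus strand), chr11:69098699-69098998 (plus), chr11:98775328-98775627 (minus), chr4:151044616-151044915 (minus) and chr7:113207261-113207560 (plus), in the order shown, each written in the direction of its gene.

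The Cry1 window held an E-box 60 bases and an E-prime box 79 bases upstream of the start. The Per1 window shown held an E-box, and the window of its other annotated start held no match. The E-box lay 166 bases upstream. The Nr1d1 window held an E-prime box 28 bases upstream, and the Cry2 window, not shown, held an E-prime box 166 bases upstream. Among the 9 genes searched, Per3 was the one with D-boxes, at 205 and 158 bases upstream. In Arntl the ROR element began at base 31 after the start, and the other annotated Arntl start, slightly upstream, has no match in its own window. Over all 32851 windows of the same length, the E-box was found in 7.15%, the E-prime box in 4.68%, the D-box in 1.06%, the ROR element in 6.45% and the cAMP response element in 1.79%. Of the 13 windows of clock genes, 2 held an E-box, 3 an E-prime box, 1 a D-box, 1 a ROR element and 0 a cAMP response element. No match was found in the windows of Clock, Nr1d2 and Dbp, which says only that these letters are not there.

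Levels are given as RPKM, reads scaled to gene length and to the reads of the library. Intervals beside them come from whole reads recovered from the RPKM, out of 5335352 reads in control and 5387114 in tumour-host epithelium, at 95% confidence. They describe counting alone, not the difference between mice. In bulk libraries such as these, fewer cells of a type and less RNA per cell cannot be told apart. The clock genes had between 28 and 2152 reads in a library. Nr1d1, Dbp and Nr1d2 were the most abundant clock genes in the control library. In tumour-host epithelium Per1 stood at the top beside Nr1d1. The genes spanned an 88.8-fold range of RPKM in the control library and a 21.6-fold range in tumour-host epithelium.

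**Figure D1:**
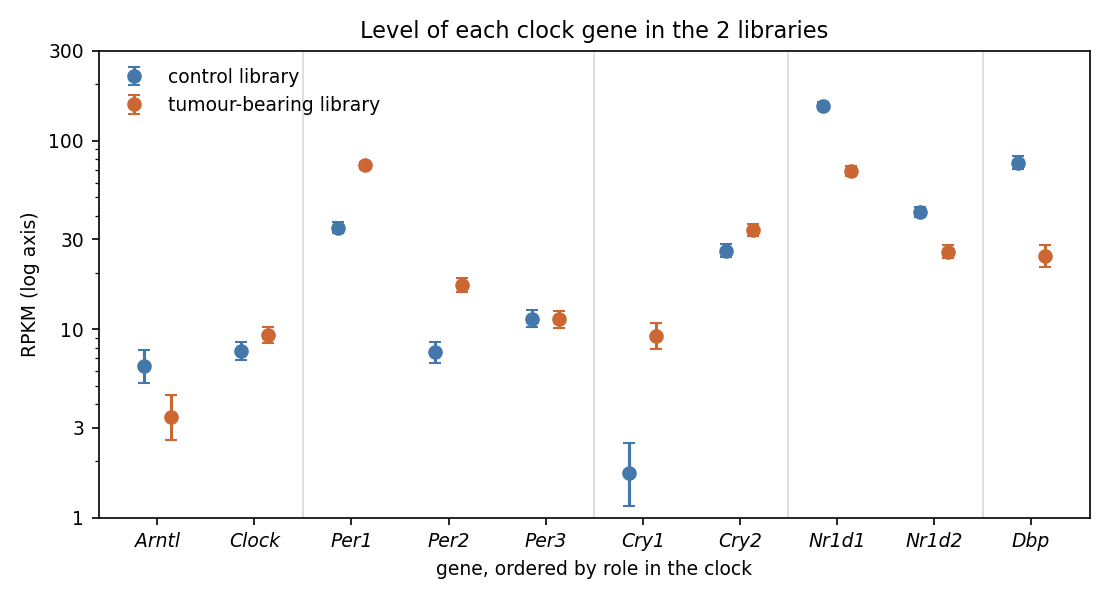
RPKM of each clock gene (log axis) in the control and the tumour-bearing library, with 95% counting intervals as bars and grey lines between groups by role. Nr1d1, Nr1d2, Dbp and Arntl lie lower in tumour-host epithelium, Per1, Per2 and Cry1 higher, and Per3 at 11.4 and 11.3 RPKM.

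Relative to the control library, Cry1, Per2 and Per1 were at least 2-fold higher in tumour-host epithelium, and Dbp and Nr1d1 at least 2-fold lower. Differences were measured as log2 ratios after adding 1 to each RPKM, and 12288 genes that reached 1 RPKM in either library were tested, all 10 clock genes among them. The 3 higher genes stand against 9.38% of all tested genes that were 2-fold higher, and the 2 lower genes against 6.53% that were 2-fold lower. The other 5 clock genes lay within 2-fold. The median log2 ratio of the clock genes was 0.12, beside 0.06 for all tested genes, because 5 values lay above 0 and 5 below. The median size of the log2 ratio, sign set aside, was 0.90 for the clock genes and 0.41 for all tested genes. At 1.5-fold, 3 clock genes were higher and 4 lower, against 19.4% and 16.1% of tested genes. At 4-fold there were 0 in either direction, against 1.66% of tested genes higher and 0.61% lower. With the whole counting interval required to lie past 2-fold, 1 clock gene was higher (Cry1) and 2 were lower (Nr1d1 and Dbp), against 6.21% and 3.64% of the 12203 tested genes with recovered reads.

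**Figure D2:**
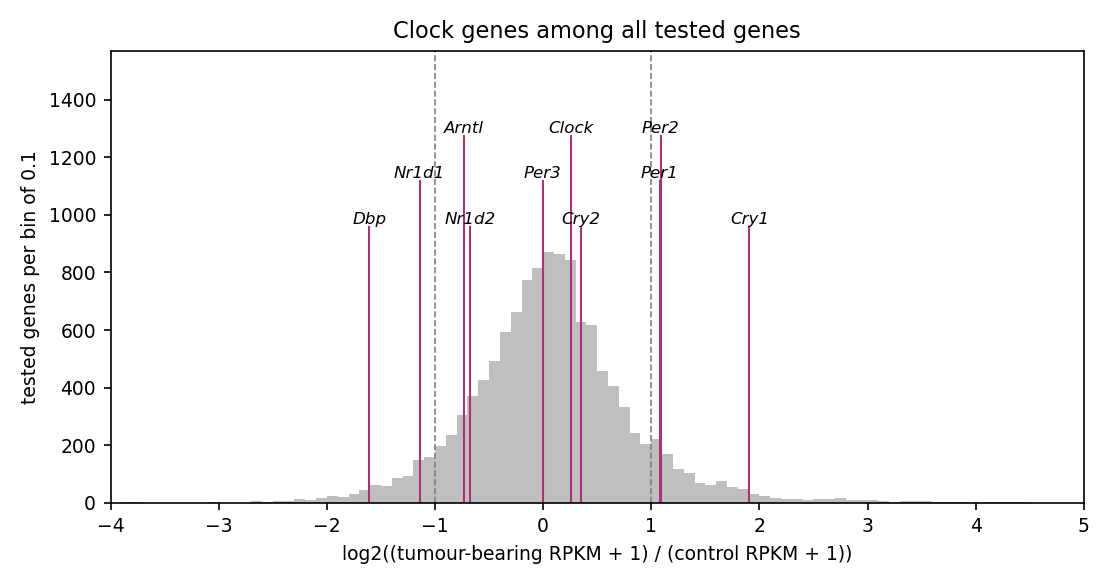
Number of tested genes (vertical axis) per bin of 0.1 of log2((tumour-bearing RPKM + 1)/(control RPKM + 1)) (horizontal axis), with the clock genes as labelled lines and 2-fold as dashed lines. Cry1 lies at 1.91 and Dbp at -1.61, with Per3, Clock and Cry2 near the centre of the distribution.

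Of the activators, Arntl was lower in tumour-host epithelium and Clock slightly higher. Arntl (GeneID 11865, chromosome 7, 113178471 to 113314126), the partner without which the loop stops in mice, was at 6.35 RPKM in control and 3.43 RPKM in tumour-host epithelium. From 99 and 54 reads, this was 1.85-fold lower (interval 1.32 to 2.63), with a log2 ratio of -0.73. Clock (GeneID 12753, chromosome 5, 76209868 to 76305603) was at 7.67 RPKM in control and 9.33 RPKM in tumour-host epithelium, 1.22-fold higher (1.04 to 1.42). The ratio of Clock to Arntl thus went from 1.21 in the control to 2.72 in tumour-host epithelium, a 2.25-fold difference (1.54 to 3.31). Such a ratio of 2 genes within a library does not depend on how the library is scaled. Npas2, which can take the place of Clock, was at 4.13 and 1.73 RPKM, 2.38-fold lower (1.62 to 3.56).

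The period genes, which encode the inhibitory arm with the cryptochromes, were divided. Per1 (GeneID 18626, chromosome 11, 69095108 to 69109965) was at 34.5 RPKM in control and 74 RPKM in tumour-host epithelium. This was 2.14-fold higher, with an interval of 1.97 to 2.33 that reaches just under 2-fold, from 859 and 1858 reads. Per2 (GeneID 18627, chromosome 1, 91415977 to 91459351) was at 7.57 RPKM in control and 17.2 RPKM in tumour-host epithelium, 2.27-fold higher (1.95 to 2.66). The ratio of Per1 to Per2 was 4.56 in control and 4.3 in tumour-host epithelium, and the interval of its change, 0.789 to 1.12, included 1. Per3 (GeneID 18628, chromosome 4, 150997018 to 151044707), which is not needed for the loop to run in mice, was at 11.4 and 11.3 RPKM, from 361 and 363 reads. Its ratio had an interval of 0.858 to 1.16, and Per3 was the only clock gene whose interval included 1 on the RPKM as deposited. The ratio of Per1 to Per3 was 3.04 in control and 6.53 in tumour-host epithelium, a 2.15-fold difference (1.81 to 2.55). Summed over the family, period genes were at 53.5 RPKM in control and 102 RPKM in tumour-host epithelium.

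Cry1 differed by the largest factor of the 10 clock genes. Cry1 (GeneID 12952, chromosome 10, 85131700 to 85185054), the stronger repressor of the cryptochrome pair, was at 1.73 RPKM in control and 9.24 RPKM in tumour-host epithelium. From 28 and 151 reads, it was 5.34-fold higher (3.55 to 8.31). Its log2 ratio of 1.91 was exceeded by 1.88% of tested genes. Cry2 (GeneID 12953, chromosome 2, 92403646 to 92434085) was at 26.2 RPKM in control and 33.7 RPKM in tumour-host epithelium, 1.29-fold higher (1.15 to 1.44). Cry1 therefore made up 6.2% of the summed RPKM of both cryptochrome genes in control and 21.5% in tumour-host epithelium. An unstranded count could also mix Cry2 with D930015M05Rik, a long non-coding RNA on the opposite strand within its span, at 1.73 and 0.156 RPKM. The ratio of Cry1 to Cry2 differed 4.15-fold (2.71 to 6.55) between the libraries.

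Both REV-ERB genes were lower in tumour-host epithelium, Nr1d1 more than Nr1d2. Nr1d1 (GeneID 217166, chromosome 11, 98767932 to 98775377) was at 154 RPKM in control and 69 RPKM in tumour-host epithelium, from 2152 and 976 reads. It was 2.23-fold lower (2.06 to 2.4), with a log2 ratio of -1.14. Nr1d2 (GeneID 353187, chromosome 14, 18204056 to 18239106) was at 41.8 RPKM in control and 25.8 RPKM in tumour-host epithelium, 1.62-fold lower (1.47 to 1.79). The ratio of Nr1d1 to Nr1d2 was 3.68 in control and 2.68 in tumour-host epithelium, 1.37-fold lower (1.21 to 1.56). Nr1d1 overlaps Thra, a thyroid hormone receptor gene, by 1075 bases. The sources used here do not give the strand setting of the counting, so reads in that stretch cannot be assigned to one of the pair. Thra was at 32.4 and 28.5 RPKM, with a log2 ratio of -0.18.

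Dbp differed most among the lower genes. Dbp (GeneID 13170, chromosome 7, 45705100 to 45710203), an output factor of the PAR bZIP family, was at 76.6 RPKM in control and 24.4 RPKM in tumour-host epithelium. This was 3.13-fold lower (2.69 to 3.66), from 686 and 221 reads, and its log2 ratio of -1.61 lay above that of 1.53% of tested genes. Dbp overlaps Sphk2, a sphingosine kinase gene on the opposite strand, by 741 bases, and Sphk2 was at 13.6 RPKM in control and 7.4 RPKM in tumour-host epithelium. The other PAR bZIP genes, Tef and Hlf, were not lower. Tef was at 44.1 RPKM in control and 75.3 RPKM in tumour-host epithelium, 1.71-fold higher (1.58 to 1.85), and Hlf was at 0.86 and 1.02 RPKM.

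Relations between clock genes also differed between the libraries. Arntl and the output gene Dbp were both lower in tumour-host epithelium, but Dbp by more. The log2 ratio of Arntl to Dbp was -3.4 in control and -2.52 in tumour-host epithelium, a difference of 0.88 (1 added to each RPKM). Without the added 1, this ratio was 1.69-fold higher in tumour-host epithelium (1.15 to 2.47). The ratio of Arntl to its repressor Nr1d1 differed 1.2-fold, with an interval of 0.839 to 1.71 that includes 1. Per1 stood at 0.225 of the level of Nr1d1 in control and at 1.07 in tumour-host epithelium, a 4.77-fold difference (4.26 to 5.34). The pair at the ends of the range, Cry1 and Dbp, had a ratio of 0.0226 in control and 0.378 in tumour-host epithelium, 16.7-fold apart (10.7 to 26.7). Apart from Arntl to Dbp, these pairs were chosen after their values were seen.

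The order of the levels changed as well. In the control library it ran from Nr1d1 through Dbp, Nr1d2, Per1, Cry2, Per3, Clock, Per2 and Arntl to Cry1, and the neighbours Clock and Per2, and Per2 and Arntl, had overlapping intervals. In tumour-host epithelium it ran from Per1 through Nr1d1, Cry2, Nr1d2, Dbp, Per2, Per3, Clock and Cry1 to Arntl. There the intervals of Per1 and Nr1d1, of Nr1d2 and Dbp, of Per3 and Clock, and of Clock and Cry1 overlapped. Dbp thus moved from the second place to the fifth, and Cry1 from the last place to the ninth. The genes nearest to Cry1 in level over the 2 libraries were Iigp1, C1ra and Faim, and those nearest to Dbp were Krt23, Adi1 and Pon1, at distances of 0.05 to 0.18 in log2(RPKM + 1). With 2 libraries this likeness rests on a pair of values for each gene.

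Further genes of the loop were read from a list of 12, of which 11 were tested. Of these 3 were at least 2-fold higher, 0 at least 2-fold lower and 8 within 2-fold, with a median log2 ratio of 0.15. Ciart, a repressor of the Arntl and Clock pair listed here under its older name Gm129, was at 3.63 RPKM in control and 19.7 RPKM in tumour-host epithelium, 5.43-fold higher (3.58 to 8.51). Nfil3, which represses through D-boxes, was at 13.2 and 28 RPKM, 2.12-fold higher (1.73 to 2.61). The repressor genes Bhlhe40 and Bhlhe41, which compete for E-boxes, were on the other side. Bhlhe40 was at 99.4 RPKM in control and 57.4 RPKM in tumour-host epithelium, 1.73-fold lower (1.6 to 1.88), and Bhlhe41 at 4.99 and 2.21 RPKM, 2.25-fold lower (1.7 to 3.01). Bhlhe41 and Npas2 did not reach 2-fold on the log2(RPKM + 1) scale, on which low values count for less. Rora, at 5.66 and 6.39 RPKM, and Hlf had intervals that included 1. Rorb was at 1.37 and 0.899 RPKM, and Cipc, an inhibitor of Clock, at 9.13 and 11.7 RPKM. Arntl2 had 6 reads in control and 0 in tumour-host epithelium and was not tested.

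**Figure D3:**
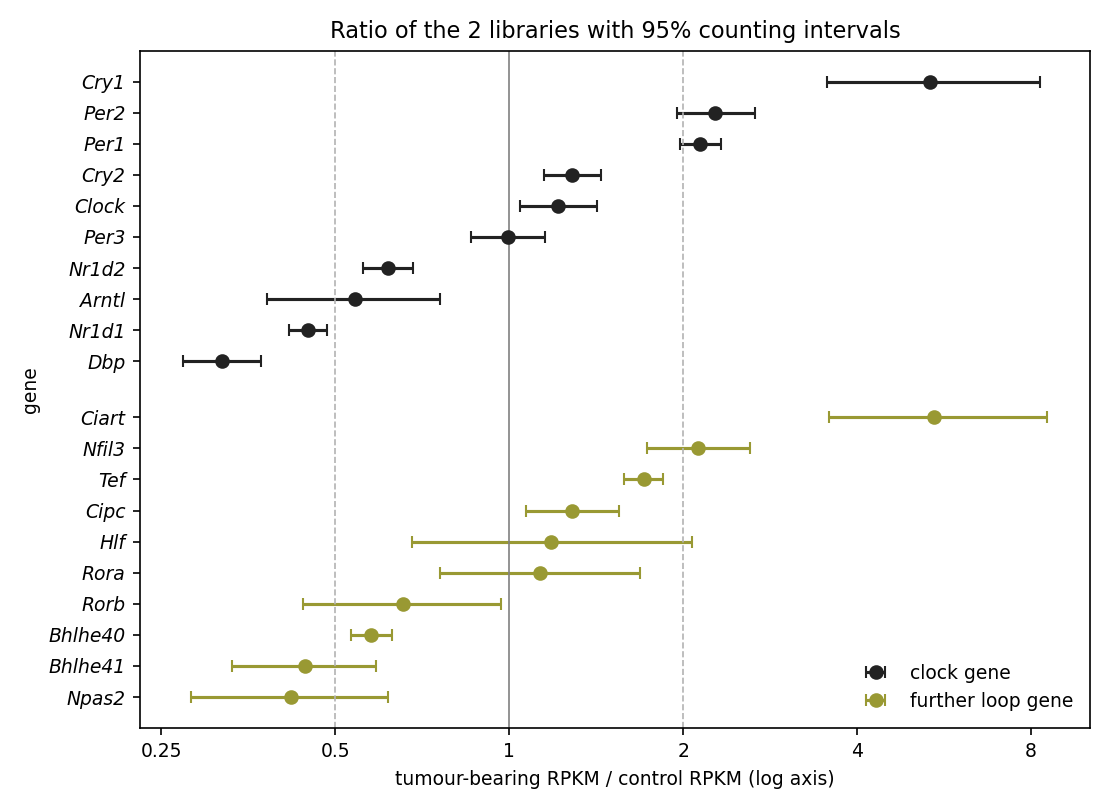
Tumour-bearing RPKM divided by control RPKM (log axis) for the clock genes (black) and the further loop genes named in the text (olive), each with its 95% counting interval, and dashed lines at 2-fold. Cry1 and Ciart lie 5.34-fold and 5.43-fold higher, and Dbp is lowest of those plotted.

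Of 17 tested genes for kinases, phosphatases and ubiquitin ligases of clock proteins, all were within 2-fold on the log2(RPKM + 1) scale. Their median log2 ratio was 0.14. Without the added 1, Fbxl21 was 3.03-fold lower (1.05 to 10.7), from 15 reads in control and 5 in tumour-host epithelium. Csnk1a1, a casein kinase gene, was at 60 and 78.8 RPKM, 1.31-fold higher (1.19 to 1.46). All 14 chromatin and co-repressor partners were also within 2-fold, with a median of -0.11. Among them Ncor1, the co-repressor that REV-ERB proteins recruit, was at 46.1 RPKM in control and 34.5 RPKM in tumour-host epithelium, 1.33-fold lower (1.25 to 1.42). Sirt1, a deacetylase gene linked to the clock, was 1.52-fold lower (1.31 to 1.78).

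Of 14 clock-controlled output genes outside the loop, 4 were at least 2-fold higher, 0 at least 2-fold lower and 10 within 2-fold, with a median of 0.12. Por, the electron donor of cytochrome P450 enzymes, was at 242 RPKM in control and 528 RPKM in tumour-host epithelium, 2.19-fold higher (2.1 to 2.28). Tspan4, a tetraspanin gene, was 2.21-fold higher (1.69 to 2.91). Cxcl5, the neutrophil chemokine under clock control in mouse airway epithelium, had 1 read in control and 29 in tumour-host epithelium, a ratio of 28.7 with an interval from 4.76 to 1173. Wee1 and Usp2, output genes with E-boxes or D-boxes, had intervals that included 1, at 11.9 and 12.8 RPKM and at 6.04 and 6.79 RPKM. Nampt, the rate-limiting enzyme gene of NAD salvage, was 1.28-fold lower (1.13 to 1.46).

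Inputs known to act on Per1 from outside the loop are glucocorticoids and cAMP. Of 12 genes for the glucocorticoid receptor and its induced targets, 4 passed 2-fold upwards and 0 downwards, with a median of 0.76. Fkbp5 was at 0.724 RPKM in control and 36.9 RPKM in tumour-host epithelium, and Zbtb16 at 2.68 and 28.5 RPKM, 10.7-fold higher (8.37 to 13.7). Klf9 was 1.85-fold higher (1.7 to 2.01) and Tsc22d3 was at 30.4 and 53.1 RPKM (interval of the ratio 1.53 to 2), while Sgk1, at 39.1 and 36.5 RPKM, had an interval that included 1. The receptor gene Nr3c1 was 1.37-fold lower (1.22 to 1.53). Of 11 genes of cAMP and CREB input, 9 were tested, and all 9 were within 2-fold, with a median of 0.03. Adcyap1r1 and Vipr1 stayed under 1 RPKM and were not tested. Adcyap1r1 had 2 reads in control and 27 in tumour-host epithelium, a ratio of 13.4 (3.36 to 116). Vipr1 had 12 and 13 reads. Sik1, a CREB target that damps the response of the clock to light, was 1.48-fold higher (1.37 to 1.6). All 10 immediate early genes lay below 0, 8 of them at least 2-fold lower, with a median of -1.57. The part of these inputs in the values of Per1 and Per2 was not tested.

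**Figure D4:**
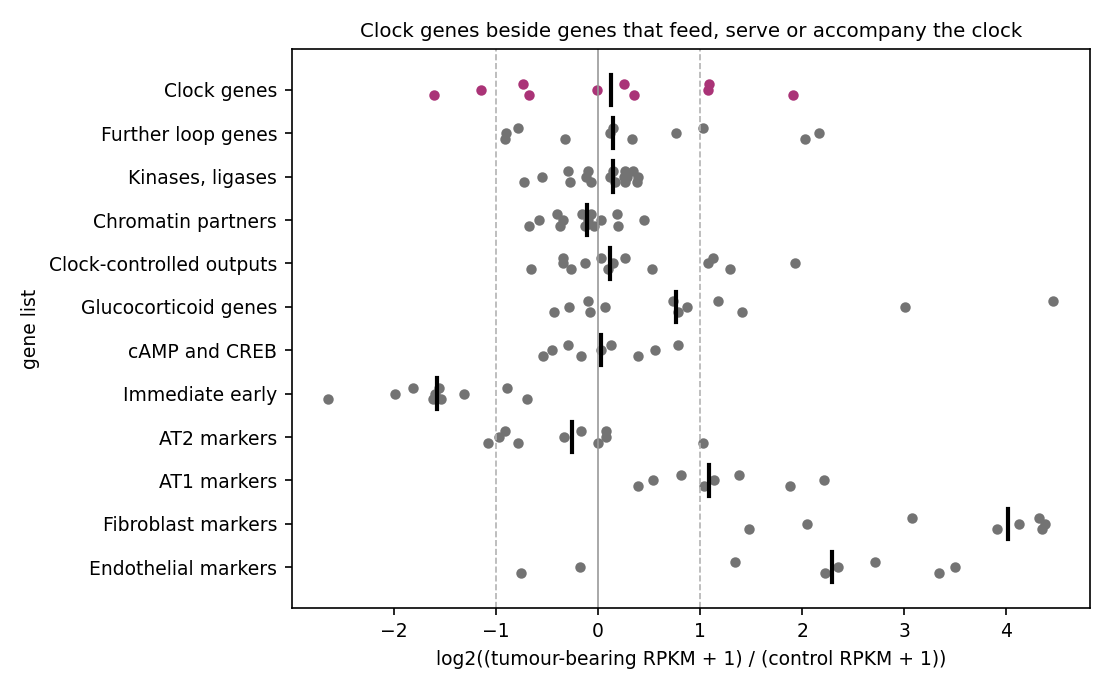
Log2((tumour-bearing RPKM + 1)/(control RPKM + 1)) (horizontal axis) of each tested gene (points) in the clock genes and 11 other lists (vertical axis), with the median as a black bar and 2-fold as dashed lines. The clock genes spread from -1.61 to 1.91 around a median of 0.12, while immediate early genes lie below 0 and fibroblast markers above.

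Markers of cell types were read beside the clock genes, since clock genes are active in nearly all cell types and a bulk library does not assign them to one. All 10 AT2 markers were listed in both libraries, with summed RPKM of 144629 in control and 97769 in tumour-host epithelium, of which Sftpc was at 94903 and 54968. Of these AT2 markers 4 had log2 ratios above 0 and 6 below, with a median of -0.25. The 8 AT1 markers summed to 1723 and 2752, and 5 of them were at least 2-fold higher. The 4 club cell markers summed to 31939 and 35960, a sum carried by Scgb1a1 at 30142 and 35116 RPKM, while the other 3 had log2 ratios below 0 and the median was -0.55. The 5 ciliated cell markers summed to 400 and 331, with 3 above 0, 2 below and a median of 0.06. Fibroblast markers, 8 of 8 at least 2-fold higher, summed to 27.5 in control and 474 in tumour-host epithelium, with Lum at 0 in the control. Endothelial markers, 6 of 8 at least 2-fold higher, summed to 25.6 and 115. The other 2, Kdr and Tek, lay below 0. Kdr was at 6.41 and 3.4 RPKM, 1.89-fold lower (1.47 to 2.43), and the interval of Tek included 1. Smooth muscle and pericyte markers summed to 0.464 and 10.6, with Acta2, Myh11, Cspg4 and Rgs5 at 0 in the control, and 2 of their 6 genes were tested. Leukocyte markers summed to 12 and 40.8, with Cd3e, Itgam, Marco and S100a8 in neither library. Cd79a and C1qb were at 0 in the control and S100a9 at 0 in tumour-host epithelium. Cd68, at 7.81 and 31.5 RPKM, held most of both sums. Of the 4 leukocyte markers tested, 3 lay above 0 and 1 below. Ptprc, the gene of CD45, was too low to be tested and went down, with 12 reads in control and 2 in tumour-host epithelium. Mesothelial markers summed to 1.73 and 17.1, with Upk3b at 0 in the control. The part of these cells in the values of the clock genes was not tested.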

How the data were processed

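RNA of CD45-, Sftpc+ lung cells was sequenced in 2 libraries, 1 per group, from mRNA selected with oligo(dT) beads, fragmented and copied with random hexamers, per the labels' protocols. The authors deposited RPKM per gene in 1 table per library, per the file headers, and the values were used as deposited. Trimmomatic and mm10 were used, per the submitters' processing notes. For the aligner, counting tool, annotation and strand setting, nothing is stated in the sources used here. Genes absent from 1 table were set to 0 there. RPKM is relative to the library, and Sftpc alone held 18.6% of the RPKM sum in control and 11.2% in tumour-host epithelium, which shifts all other values.

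Reads were recovered as whole numbers. The total of each library was the largest at which the last 120 rows, of 1 read each, gave whole gene lengths (120 of 120 in both libraries). Each gene then took the whole length at which both libraries had whole reads, and, where several fitted, the one in keeping with the row order, since rows run from most to fewest reads. This settled 14963 of 15113 genes (99.0%), all clock genes included, with 4 of 27942 neighbouring rows out of order. The order was used in the recovery and is no independent check, and the totals are estimates. Ratios have exact conditional binomial 95% intervals, ratios of 2 genes within a library exact conditional intervals of the odds ratio, and RPKM exact Poisson intervals. Reads have no molecular identifiers, so these cover counting error only.

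The size rule was 2-fold on log2(RPKM + 1), applied to genes that reached 1 RPKM in either library. The clock genes and all lists were chosen with earlier results of these data known. Named were all clock genes and all further loop genes at 1 RPKM or more. From other lists, up to 4 genes with the largest log2 ratio, of either sign, at 5 RPKM or more were named. Wee1, Usp2, Nampt, Cxcl5, Klf9, Tsc22d3, Sgk1, Nr3c1, Arntl2, Thra, Sphk2, D930015M05Rik, Ptprc, Kdr and Tek were named after their values were seen. So were Adcyap1r1, Vipr1 and Fbxl21. Some genes of these lists are counted but not reported here by name. Symbols and coordinates were matched by GeneID to a RefSeq table of GRCm38.p6 for 15080 of 15113 genes. Alternatives were 3 scalings, median centring, pseudocounts of 0.1 and 5, no filter or one at 5 RPKM, other thresholds and recovered reads. The recovery and the size rule were tested on simulated data. Python 3.11.15, NumPy 2.4.6, pandas 2.3.3 and SciPy 1.17.1 were used.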

Additional observations from a re-analysis of the deposited data

How the results depend on the processing

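Of 70 recomputed log2 ratios of single clock genes, 66 stayed within the counting interval of the ratio and 4 left it (Per1 and Cry1 with upper-quartile scaling, Per2 and Cry1 with a pseudocount of 5), and 0 of the 10 genes changed sign. The number of clock genes at least 2-fold higher, 3 as reported, was 1 with upper-quartile scaling, 1 with a pseudocount of 5, 1 with the counting interval wholly past 2-fold and 0 at a 4-fold threshold. Per1 and Per2 were thus close to the threshold, with log2 ratios down to 0.97 and 0.82 over these settings. The number at least 2-fold lower, 2 as reported, was 4 at 1.5-fold, with Arntl and Nr1d2 added, and 0 at 4-fold. Cry1 ranged from 1.08 with a pseudocount of 5 to 2.40 from recovered reads. The median log2 ratio, 0.12 as reported, lay between 0.03 and 0.14. The log2 difference of Arntl to Dbp lay between 0.76 and 1.04 in the alternatives. Upper-quartile scaling lowered the median of all genes by 0.10. It divided tumour-host values by 1.08, more than the lower bound of 1.04 for Clock, whose interval would then include 1. Recomputing single genes from recovered reads was added after the values were seen. No paired analysis was possible because each group holds 1 library. With 1 library per group, neither the spread between mice nor the hour of collection can be separated from the tumour.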
